A study of Mus musculus with 4 samples.

Results

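The regions described here were the PHF2 peaks whose centre lay 1 to 1000 bp upstream, by strand, of the nearest start of a protein-coding transcript. They were chosen from the positions of the peaks, and any peak overlapping the 1000 bp either side of starts of 2 or more protein-coding genes was left out. The rule found 954 of the 5992 peaks, 15.9% (95% Wilson interval 15.02% to 16.9%), at 938 genes. That is 4.29% of the 21853 protein-coding genes in the GENCODE M21 annotation. The same rule found 3860 peaks centred 0 to 1000 bp downstream of a start, at 3803 genes (17.4% of coding genes), and 60 genes had a peak of each kind.

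The cells were neural stem cells of wild-type C57BL/6J embryos at E12.5, cultured in medium with EGF (20 ng/ml) and FGF (10 ng/ml), mitogens that keep such cells dividing. Chromatin was immunoprecipitated either with an antibody to PHF2 (Cell Signaling D45A2) or with an antibody to H3K9me2, histone H3 dimethylated at lysine 9 (Abcam ab1220), and each had an input that was not analysed here. There was 1 sample per group, so no spread between cultures could be measured, and peak lists give no read totals, so the depth is unknown. Every interval covers counting error over peaks or genes of this 1 sample, by Wilson's method for shares and by binomial order statistics for medians. The peak positions set the classes compared, so no test was made between them. Of 10 neural stem cell markers, 9 carried a PHF2 peak (Nes, Vim, Sox2, Sox9, Hes1, Pax6, Fabp7, Slc1a3 and Notch1). A peak was present at 1 of 6 neuronal markers, and at 0 of 4 astrocyte, 0 of 3 oligodendrocyte, 0 of 3 microglial and 0 of 2 endothelial markers, though a peak list measures no expression. Over all coding genes, 6306 of 21853 carried a peak. No gene of these marker sets had an upstream-centred peak, so the counts describe the whole peak list and not the part described here.

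PHF2 is a histone demethylase of the KDM7 family. Its PHD finger binds H3K4me3, the mark of nucleosomes at active promoters, and its catalytic domain is described as acting on H3K9me2. Many mammalian promoters lie in CpG islands, stretches rich in the dinucleotide CpG. They often initiate transcription in both directions and use several start sites, and nucleosomes on either side of the start can carry H3K4me3.

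The first pair of sequences shows the DNA of an upstream-centred peak and that of a start facing an antisense noncoding start, on mm10, 5′ to 3′ along the gene, with each CpG in capitals. The central 200 bases of the Myc peak, the highest-scoring of the 954, lay at chr15:61986481-61986680 on the plus strand and held 8 CpG. The 172 bases from the start of the antisense noncoding gene 5031425E22Rik to the base before the Kmt2e start lay at chr5:23434269-23434440 on the plus strand and held 29 CpG.
Myc: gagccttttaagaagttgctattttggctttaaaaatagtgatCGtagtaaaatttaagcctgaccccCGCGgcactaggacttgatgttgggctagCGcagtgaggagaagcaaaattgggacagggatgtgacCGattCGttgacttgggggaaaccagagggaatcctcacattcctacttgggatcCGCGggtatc
Kmt2e: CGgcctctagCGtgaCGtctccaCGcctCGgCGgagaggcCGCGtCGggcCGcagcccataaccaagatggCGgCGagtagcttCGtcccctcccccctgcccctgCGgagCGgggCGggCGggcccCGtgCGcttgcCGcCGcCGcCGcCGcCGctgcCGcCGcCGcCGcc
In these stretches the CpG were dense and clustered at Kmt2e and sparse at Myc, 29 in 172 bases against 8 in 200. The stretches differ in kind, a peak centre at Myc and the DNA between the noncoding and the coding start at Kmt2e. Over the whole peaks the order was the other way, with 236 CpG in 3755 bp at Myc and 222 in 3985 bp at Kmt2e.

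The next 3 sequences show short motifs under the peak centres, with the motif in capitals. They are the SP and KLF string of Cited2 (chr10:17723026-17723071, plus strand), the ETS string of Pdss2 (chr10:43221158-43221196, plus strand) and the NFY string under the Myc peak (chr15:61986577-61986621, plus strand). They are shown because these strings were the most frequent of those sought, each in the highest-scoring peak that held it among those from which sequence is given.
Cited2: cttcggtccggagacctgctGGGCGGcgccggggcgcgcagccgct
Pdss2: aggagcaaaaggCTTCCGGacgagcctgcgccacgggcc
Myc: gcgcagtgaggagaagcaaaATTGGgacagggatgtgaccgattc
The Pdss2 and Myc strings read as the reverse complement of CCGGAAG and CCAAT.

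Most upstream centres were close to the start. The median centre was at −97.5 bp (95% interval −109 to −89 bp), and 486 centres lay within 100 bp and 746 within 250 bp of it, with 83 at 501 to 1000 bp. The peak itself usually covered the start: 891 of the 954 did so (93.4%, 91.6% to 94.8%), against 97.4% (96.8% to 97.8%) of the downstream-centred peaks. Of the 63 that missed the start, 57 were among the 83 farthest. The median edges were at −859 and 599 bp for the upstream-centred peaks and at −408 and 875 bp for the downstream-centred ones. The upstream-centred peaks were mostly domains across the start. Their displacement to its 5′ side, and the order of the median edges, follow from the rule that chose them by their centres.

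**Figure D1:**
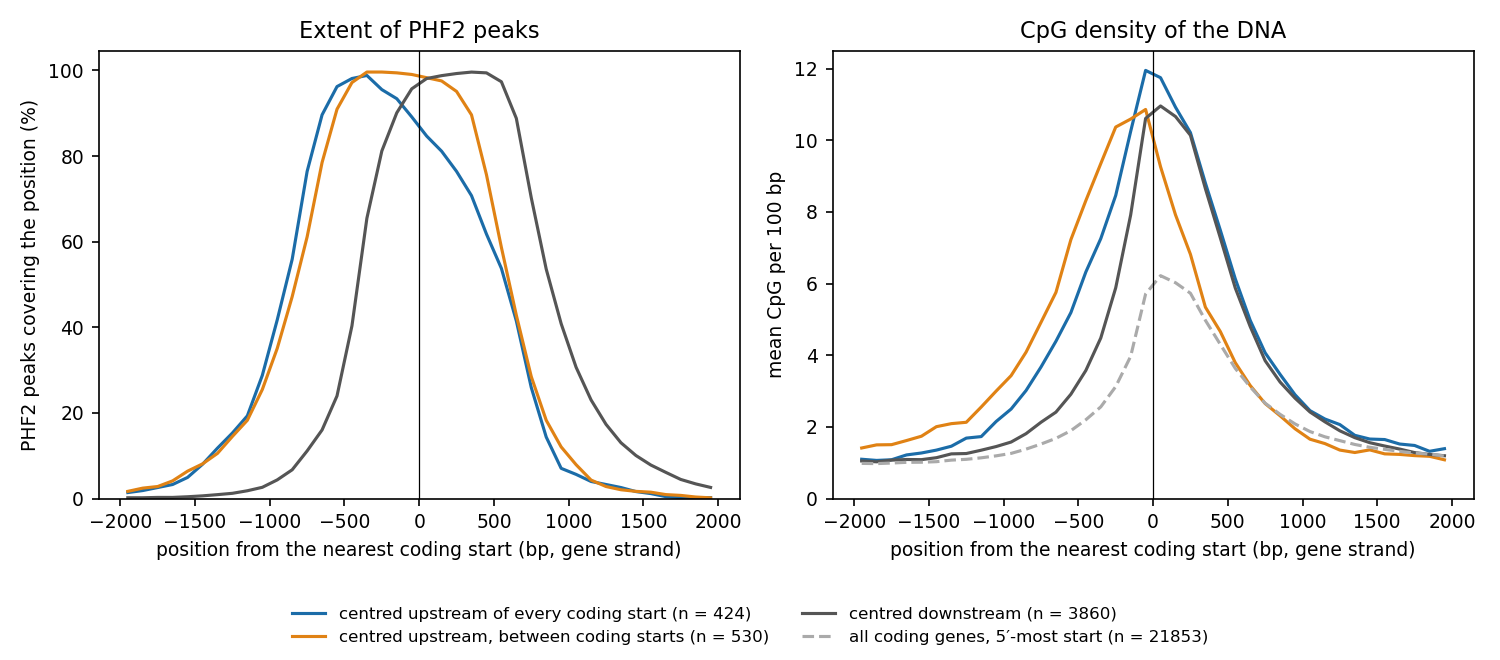
Left, percentage of PHF2 peaks covering each 100 bp position from 2000 bp upstream to 2000 bp downstream of the nearest coding start; right, mean CpG count per 100 bp at the same positions, with all coding genes as a dashed line. By the rule, peaks centred upstream of every start (blue, n = 424) and between starts (orange, n = 530) extend to the left of those centred downstream (grey, n = 3860). Only the between-starts class has its CpG mostly to the left of the start.

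Scores of peaks on either side of the near edge of the rule overlapped. Centres 1 bp upstream, just inside, belonged to 6 peaks, at Patz1, Ccdc88c, Fign, Rps19, Setd1a and Ei24, with scores of 156.64 (Setd1a) to 870 (Fign). Centres exactly on the start, just outside, belonged to 9 peaks, at Tut7, Tpt1, Zfp41, Tmx3, Hspa5, Sec22b, Atxn7l2, Zc3h4 and Gtf2e2, with scores of 145.48 (Gtf2e2) to 551.19 (Tpt1). At the far edge, the Mtg2 peak (998 bp upstream, score 189.99, 1100 bp long) was the last inside and the Pik3ca peak (1006 bp, score 102.1, 949 bp long) the first outside.

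The number of annotated starts of a gene moved with the share of peaks centred upstream. Of the 4814 peaks at starts of 1 gene and within 1000 bp of one, 19.8% (18.7% to 21.0%) were centred upstream. At genes with 1 coding start the share was 9.69% (8.18% to 11.4%) of 1270 peaks. It was 16.8% of 1134 peaks at genes with 2 starts, 24.1% of 859 with 3, 26.7% of 910 with 4 to 5, and 29.8% (26.4% to 33.4%) of 641 with 6 or more. The part centred upstream of every start of the gene did not follow that order: it was 9.69%, 8.91%, 9.78%, 8.24% and 6.40% (4.75% to 8.56%) in the same classes. By the rule itself, the positions that count as upstream of a nearest start grow in number with the starts, and the part of this in the order was not tested.

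**Figure D2:**
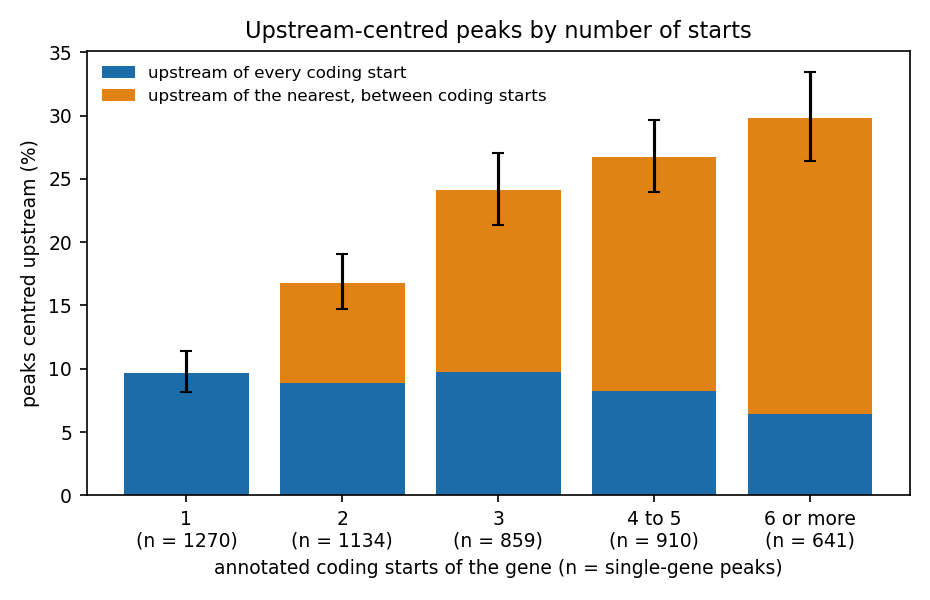
Share (%) of single-gene PHF2 peaks within 1000 bp of a start that were centred upstream of the nearest start, by the number of annotated coding starts of the gene; bar parts separate centres upstream of every start (blue) from centres between starts (orange), and error bars are 95% Wilson intervals of the whole share. The whole bar runs from 9.69% with 1 start to 29.8% with 6 or more, while the blue part stays between 6.40% and 9.78%.

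Thus 530 of the 954 peaks (55.6%, 52.4% to 58.7%) were centred between coding starts of the same gene, upstream of the nearest and downstream of another. The other 424 (44.4%, 41.3% to 47.6%) were centred upstream of every coding start. Centres between starts were also frequent among downstream-centred peaks, 52.0% within 100 bp and 37.8% at 101 to 250 bp. The share was 36.3% at 251 to 500 bp and 39.7% at 501 to 1000 bp. Of the 3860 downstream-centred peaks, 2307 were centred downstream of every start. Among the 530, the centre lay in an exon of the gene in 298 and in an intron in 232. Among the 424, it lay outside genes in 297, in a noncoding gene in 73 (71 of them on the opposite strand), in another coding gene in 14, and in a noncoding transcript of the gene itself in 40. Genes of the 530 had a median of 4 coding starts and genes of the 424 a median of 2, against 2 for the downstream-centred peaks.

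The CpG of the DNA lay mostly upstream of the start in the between-starts class, and on the downstream side, though closer to the start, in the class upstream of every start. By the rule, a between-starts peak has another start of the gene upstream of its centre, and the part of this in the CpG positions was not tested. Downstream-centred peaks between starts were not taken apart for CpG. The mean position of CpG within 1000 bp of the start, here the CpG centroid, had a median of −41.1 bp (−53.8 to −28.7 bp) for all 954, against 104.8 bp (101 to 108 bp) for downstream-centred peaks and 94.3 bp (92.1 to 96.7 bp) for the 5′-most starts of all coding genes. It was −107 bp (−121 to −91.8 bp) for the 530 between starts and 27.6 bp (14.4 to 37.8 bp) for the 424 upstream of every start. The interval of these 424 lay between those of the between-starts and the downstream-centred peaks. For the 2307 downstream-centred peaks that lay downstream of every start, the median was 112.7 bp (107 to 117.5 bp). Genes with 1 coding start leave no choice among coding starts. There the median was 24.5 bp (−5.77 to 42.0 bp) for the 123 upstream-centred and 140.3 bp (132 to 147.5 bp) for the 1147 downstream-centred peaks. Of these 123 centres, 11 still lay in an exon and 5 in an intron of the gene, in transcripts not annotated as protein coding.

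Counts on each side of the start gave the same order. The 1000 bp upstream held a median of 66 CpG and the 1000 bp downstream 51 for all 954 peaks. These medians were 74 and 41 for the between-starts class, 58 and 65 for the class upstream of every start, and 38 and 65 for the downstream-centred peaks. At 400 to 500 bp upstream, the mean density was 8.32 CpG per 100 bp for the between-starts class, 6.32 for the class upstream of every start and 3.58 for the downstream-centred peaks. At 400 to 500 bp downstream it was 4.66, 7.49 and 7.28. The class upstream of every start therefore had a CpG-rich stretch about as dense as the downstream-centred class on the gene side, with more CpG on the 5′ side.

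The DNA was CpG-rich in both classes of peak. Starts of the 954 peaks had a median of 120 CpG within 1000 bp, those of the downstream-centred peaks 106, all coding genes 62 and coding genes without a PHF2 peak 38. The ratio of observed to expected CpG under the peak was 0.793 (0.783 to 0.804) against 0.776 (0.771 to 0.781), and GC content was 60.8% (60.2% to 61.3%) against 60.0% (59.7% to 60.2%).

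The position of the centre and the CpG centroid moved together across all 4814 peaks, with Pearson's r of 0.508 and Spearman's rho of 0.526. Within the 954 upstream-centred peaks alone r was 0.124 and rho 0.198, and within the downstream-centred peaks 0.378 and 0.400. These describe peaks of 1 sample around 1 set of annotated starts, and both measures are taken from the same start. The centroid did not run on in 1 direction with distance: its median was −11.1 bp for centres within 100 bp, −106 bp for 101 to 250 bp, −63.8 bp for 251 to 500 bp and −36.8 bp for 501 to 1000 bp upstream. The share of between-starts peaks in these bins was 61.5%, 60.0%, 44.0% and 24.1%.

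Antisense noncoding starts were more frequent before upstream-centred than before downstream-centred peaks. A start of a noncoding gene on the opposite strand lay 1 to 1000 bp upstream of the coding start in 137 of the 954 (14.4%, 12.3% to 16.7%) and in 333 of the 3860 (8.63%, 7.78% to 9.55%). The share was 9.76% of the 4814 peaks of both kinds, 3.89% of all coding genes at their 5′-most start and 2.73% of coding genes without a PHF2 peak. For noncoding starts, CpG and motifs, coding genes were taken at their 5′-most start. Genes with starts near those of another coding gene were kept, though peaks there were left out, so the sets are not matched. The class upstream of every start had 76 of 424 (17.9%, 14.6% to 21.9%), and the between-starts class 61 of 530 (11.5%, 9.07% to 14.5%), whose interval overlaps that of the downstream-centred peaks. Downstream-centred peaks that lay downstream of every start had 196 of 2307 (8.50%, 7.43% to 9.70%). At genes with 1 coding start, 22 of 123 upstream-centred peaks (17.9%, 12.1% to 25.6%) and 100 of 1147 downstream-centred ones (8.72%, 7.22% to 10.5%) had such a start.

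For noncoding starts of other orientations the intervals of the classes overlapped. A noncoding start on the same strand lay upstream in 1 of the 954 (0.105%, 0.0185% to 0.591%) and in 9 of the 3860 (0.233%, 0.123% to 0.443%). An antisense noncoding start lay 0 to 1000 bp downstream in 6.92% (5.47% to 8.71%) and 5.96% (5.25% to 6.75%), against 3.38% of all coding genes. It did so in 8.96% (6.60% to 12.1%) upstream of every start and in 5.28% (3.68% to 7.53%) between starts. At genes with 1 coding start the shares were 8.94% (5.07% to 15.3%) of upstream-centred and 6.45% (5.17% to 8.02%) of downstream-centred peaks. By distance of the centre, the upstream antisense share was 14.5%, 17.6%, 12.7% and 14.4% from the farthest bin upstream to the nearest, and 9.40%, 9.16%, 7.70% and 8.26% from the nearest bin downstream to the farthest. Each upstream bin was above each downstream bin, but intervals overlapped within a side and, for some bins, across the start. The nearest bins had intervals of 11.6% to 17.8% upstream and 7.50% to 11.7% downstream.

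**Figure D3:**
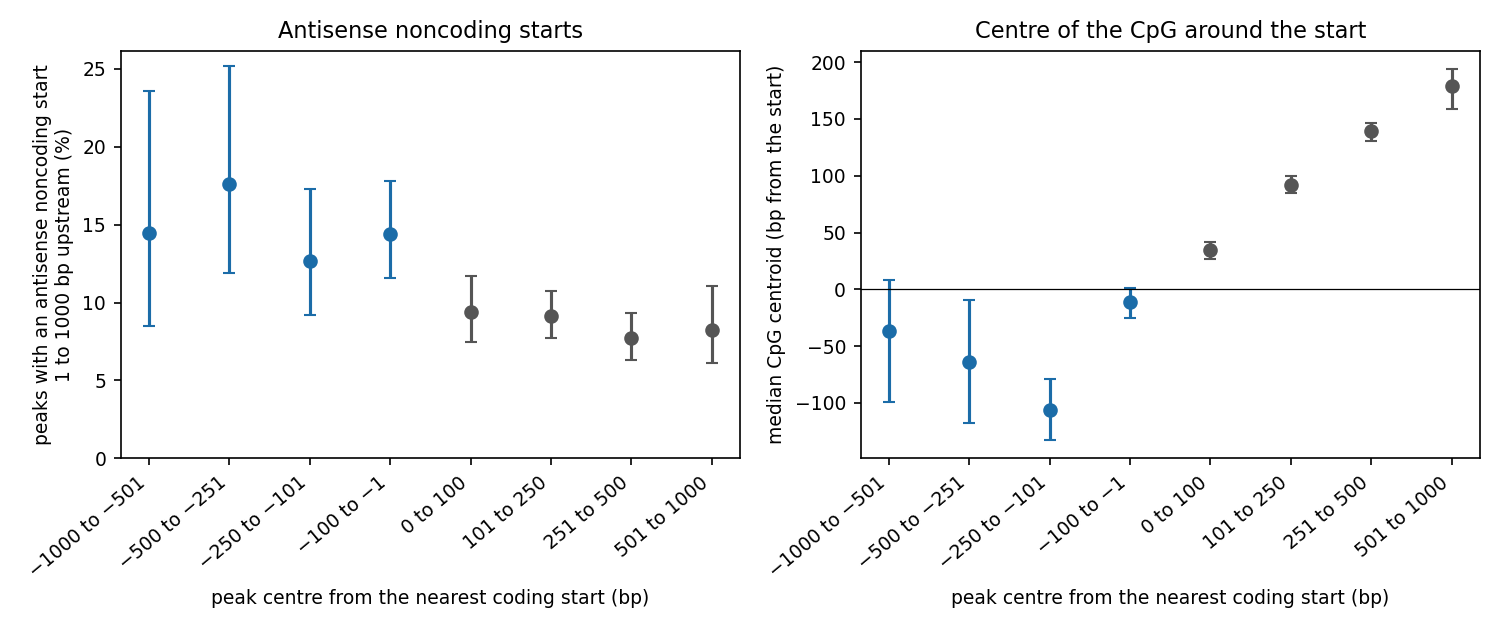
Share (%) of peaks with an antisense noncoding start 1 to 1000 bp upstream (left) and median CpG centroid in bp from the start (right), by the position of the peak centre in bp, upstream-centred in blue and downstream-centred in grey; bars are 95% intervals (Wilson for shares, binomial order statistics for medians). The 4 upstream bins lie at 12.7% to 17.6% and the 4 downstream bins at 7.70% to 9.40%, while the CpG centroid runs from −106 to 179 bp.

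The peaks with an antisense start usually spanned both starts. The noncoding start lay a median of 240 bp (206 to 283 bp) from the coding start, with a range of 3 to 965 bp, and 122 of the 137 peaks (89.1%) covered both starts. In the downstream-centred class the distance was 177 bp (155 to 200 bp) and 271 of 333 peaks (81.4%) covered both. The centre of 91 of the 137 lay between the starts, and that of 46 lay farther upstream than the noncoding start. The noncoding genes were annotated as antisense (41), processed transcript (34), lincRNA (31) and bidirectional promoter lncRNA (31). Score, length and CpG centroid of the 137 were near those of the other 817: the medians were 251 and 245 for score, 1473 and 1392 bp for length, and −37.3 and −41.2 bp for the centroid.

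At Kmt2e, which encodes a SET-domain protein of the KMT2 family, the peak ran from −2263 to 1721 bp, and its centre at 271 bp upstream lay beyond the noncoding start at 172 bp. Centres beyond the noncoding start were also found at Zbtb37 and Znfx1, which face the snoRNA host genes Gas5 and Zfas1 and were among the 10 highest-scoring peaks with an antisense start. The Zbtb37 peak (chr1:161034222-161036988, score 1137.58) was centred 756 bp upstream, in Gas5, whose start lay 80 bp upstream of the coding start. The Znfx1 peak (chr2:167062679-167064566, score 825.08) was centred 607 bp upstream, in Zfas1, whose start lay 206 bp upstream of the coding start. Another such gene, chosen after its values were seen, was Slc3a2, an amino acid transporter subunit (score 534.68). Its peak was centred 327 bp upstream, in Snhg1, whose start lay 106 bp upstream of the coding start. For these 3 peaks the centre was upstream of the coding gene and downstream of the start of the noncoding one.

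The others of the 10 were centred between both starts. They were Fut8 (centre 68 bp and 9530018F02Rik start 402 bp upstream), Mex3b (131 and 259 bp, Gm36584), Rapgef2 (280 and 656 bp, 6430573P05Rik), Sgms1 (3 and 704 bp, 2700046G09Rik), Dnaja1 (107 and 524 bp, Gm6297), Emx2 (414 and 884 bp, Emx2os) and Gabpb1 (44 and 564 bp, Gm27003). Emx2 is a homeobox factor of the dorsal forebrain, and its peak (chr19:59457505-59460705, score 823.6) spanned 3201 bp. All 10 peaks covered both starts.

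Score and length come from the same immunoprecipitation that chose the peaks and are given as a description. The score is the authors' own value per peak, on a scale that no label or header states, and it was used to order and select peaks of this list alone. Its median was 245.4 (231 to 256), with a range of 100.02 to 2570.62, against 227.7 (223 to 233) for the downstream-centred peaks. It was 256.6 (244 to 279) between starts and 226.6 (208 to 247.5) upstream of every start. The median length was 1405.5 bp (1358 to 1438 bp), from 690 to 4961 bp, against 1273 bp (1260 to 1287 bp). Peaks of 2000 bp or more made up 14.7% (12.6% to 17.1%) and 11.2% (10.2% to 12.2%). Score and length moved together across the 954 peaks (Pearson's r 0.808, Spearman's rho 0.813), both being set by the same reads. Length was not in order with distance: medians were 1435, 1443.5, 1305 and 1161 bp from the nearest upstream bin to the farthest. Downstream they were 1297, 1170, 1314 and 1742 bp from the nearest bin to the farthest. Median scores in the same bins were 247, 250, 255 and 193 upstream and 218, 191, 244 and 411 downstream. In the farthest bin score and length were thus both lower upstream than downstream, the reverse of the pooled medians.

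**Figure D4:**
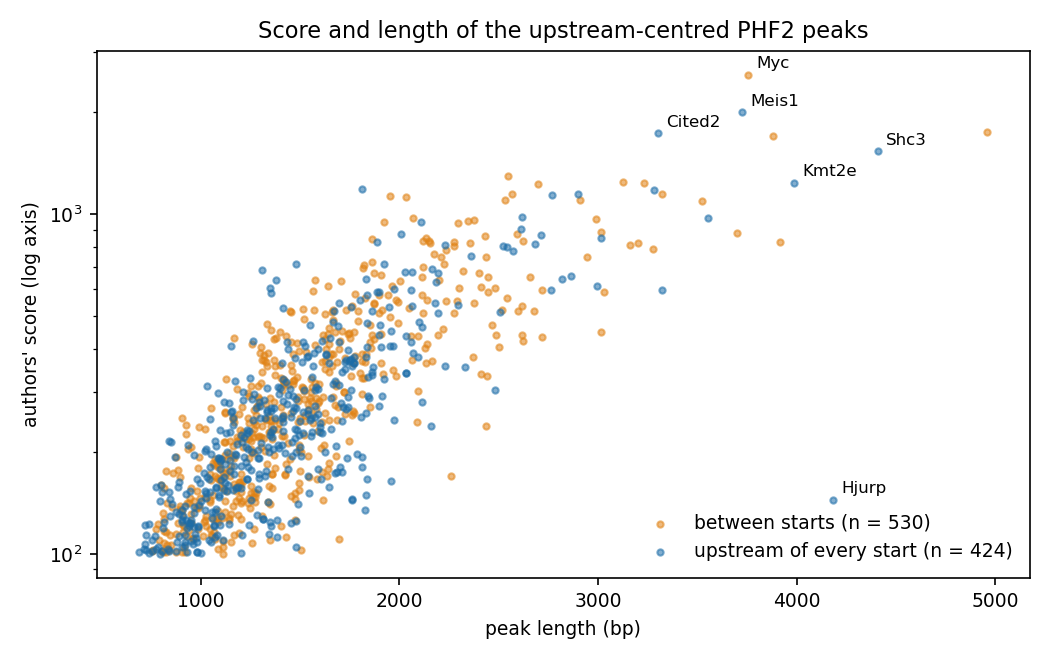
Length in bp (linear axis) against the authors' score (log axis) of the 954 upstream-centred PHF2 peaks, 1 point per peak, between starts in orange and upstream of every start in blue. Both classes lie along 1 band, with Myc at the top and Hjurp, 4182 bp long with a score of 144.34, well below it.

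The highest-scoring peak was that of Myc, the transcription factor that drives growth and entry into the cell cycle. It ran over chr15:61984704-61988458, was centred 453 bp upstream of the nearest of 6 coding starts and 1190 bp inside the 5′-most one, and had a score of 2570.62. The next was Meis1, a homeobox factor, with a score of 1995.57 and a centre 263 bp upstream of every start. Meis1 had 67 CpG in the 1000 bp upstream and 34 downstream. Sema6a, a transmembrane semaphorin of axon guidance, scored 1746.56 with a centre at 13 bp and the longest peak of the 954, 4961 bp. Cited2, a coactivator that binds CBP and p300, scored 1729.87 with a centre at 95 bp and went the other way in CpG, with 63 upstream and 82 downstream. Mdga2, a synaptic adhesion protein, scored 1695.85 with a centre at 130 bp.

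Shc3, a neuronal adaptor of receptor tyrosine kinases, had 1 coding start and a peak of 4409 bp centred 929 bp upstream of it, which still covered the start. It scored 1528.58, with 87 CpG upstream and 25 downstream. Its centre lay in an exon of Shc3, in a transcript not annotated as protein coding. The other 9 of the 15 highest were Arid1b, a BAF subunit (1289.98), Inka2 (1240.88), Kmt2e (1237.3), Ppp3ca, a calcineurin catalytic subunit (1236.49), Btg1, an antiproliferative factor (1228.32), Sp3, a factor that binds GC boxes (1184.92), Erbin (1178), Ptprm, a receptor phosphatase (1149.16), and Cd24a, a surface glycoprotein (1146.49). All 15 covered the start, 9 were centred between starts, 6 upstream of every start, 12 had more CpG upstream than downstream, and 1 (Kmt2e) had an antisense noncoding start.

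Score hardly moved with the position of the centre across the 954 peaks (Pearson's r −0.0205, Spearman's rho 0.0182). The bin at 501 to 1000 bp nevertheless had the lowest upstream median, 193. Short peaks had low scores, as the relation of score and length given above implies. The 5 farthest centres belonged to Mtg2 (998 bp), Lrrc4 (953 bp, within the gene Snd1), Klf12 (945 bp), Ranbp9 (945 bp) and Kmt2a (942 bp), and none of these 5 peaks reached the start. Their scores were 102.58 (Ranbp9) to 310.59 (Kmt2a). The Mtg2 centre lay in an intron of the gene, in a transcript not annotated as protein coding. The Ranbp9 centre lay in an intron between starts, and the Kmt2a centre within the antisense gene AC061963.1. The shortest were at Atxn2 (690 bp), Arid1b (714 bp), Zeb1 (716 bp), Arhgap35 (719 bp) and Ranbp2 (721 bp), with scores of 101.18 (Atxn2) to 121.97 (Zeb1). The Arid1b peak here was a second one, 169 bp from the high-scoring one.

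Such neighbours were more frequent among upstream-centred peaks. Another PHF2 peak lay within 250 bp of 55 of the 954 (5.77%, 4.46% to 7.43%), and of 54 of the 3860 downstream-centred peaks (1.40%, 1.07% to 1.82%). The share was 8.73% (6.40% to 11.8%) upstream of every start and 3.40% (2.16% to 5.30%) between starts. It included the Myc peak, 116 bp from the next. A total of 31 members shared a gene with another: 14 genes had 2 each, and Tcf4 had 3. At Map3k1, Patz1, Kdm2b, Kcmf1 and Cacna1a, chosen after their values were seen, both peaks lay within 250 bp of each other. The same held at Arid1b, Picalm, Ranbp9, Smad7 and Sptbn1, and at no other gene with several members. When peaks within 250 bp were joined, a choice made after the data had been seen, 923 were centred upstream, 14.3% (12.2% to 16.7%) with an antisense start and a median CpG centroid of −45.4 bp (−57.3 to −33.6 bp).

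H3K9me2, the mark PHF2 is described as removing, was measured in a separate immunoprecipitation. Of the 954 peaks, 2 overlapped an H3K9me2 region (0.210%, 0.0575% to 0.761%). This compares with 0 of the 3860 downstream-centred peaks, which allows a share of up to 0.0994% by Wilson's interval, and with 3 of all 5992 PHF2 peaks, 0.0501%. With 2 peaks the shares cannot be told apart. The first was at Neurod1, a proneural bHLH factor, where a peak of 1233 bp (score 231.43) was centred 884 bp upstream within the antisense gene Gm26755 and did not reach the start. The H3K9me2 region there, chr2:79457655-79457727, was 73 bp long and 56 bp from the peak's centre, and the CpG ratio under the peak, 0.180, was far below the median of the 954. The second was at Hjurp, which loads the histone CENP-A at centromeres, where a peak of 4182 bp with its centre within the gene Trpm8 overlapped regions of 107 and 84 bp at chr1:88278410-88278516 and chr1:88279197-88279280. An H3K9me2 region lay within 10 kb of the centre in 17.7% (15.4% to 20.3%) of the upstream-centred and 17.8% (16.6% to 19.04%) of the downstream-centred peaks.

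Of 11 short motifs sought as exact strings on both strands, 5 are described first. In the central 200 bp of the peaks, CCAAT (the NFY box) was in 19.2% (16.8% to 21.8%) of the upstream-centred and 9.15% (8.28% to 10.1%) of the downstream-centred peaks. CCGGAAG (ETS) was in 12.1% (10.1% to 14.3%) and 6.17% (5.45% to 6.97%), and GGGCGG (SP and KLF factors) in 57.5% (54.4% to 60.6%) and 48.4% (46.8% to 49.97%). CACGTG (the E-box) was in 5.03% (3.82% to 6.61%) and 3.47% (2.94% to 4.10%), and TATAAA (the TATA box) in 2.20% (1.44% to 3.34%) and 1.14% (0.850% to 1.53%). None of these 5 strings contains another, and a match is a description of the letters, not a site. The other 6 were not all more frequent in the upstream-centred peaks. The SOX strings ACAATGG or ACAAAGG were in 3.56% (2.56% to 4.94%) and 4.25% (3.66% to 4.93%), and the YY1 string in 0.419% (0.163% to 1.07%) and 0.648% (0.439% to 0.954%), both lower with overlapping intervals. The E2F strings were in 1.89% (1.20% to 2.96%) and 1.503% (1.16% to 1.94%), and the CREB string in 0.839% (0.426% to 1.65%) and 0.389% (0.236% to 0.640%), also with overlapping intervals. The NRF1 string was in 1.05% (0.570% to 1.92%) and 0.181% (0.0879% to 0.374%), and the ZBTB33 string in 1.15% (0.645% to 2.05%) and 0.181%.

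These windows lie at different distances from the start, and with the window placed on the start the 954 peaks as a whole came closer to the downstream-centred ones or changed order with them. In the 200 bp around the start, CCAAT was in 16.8% (14.5% to 19.3%) of upstream-centred and 22.9% (21.6% to 24.2%) of downstream-centred peaks, and in 27.9% of all coding genes. CCGGAAG was in 12.47%, 13.4% and 9.58%, GGGCGG in 64.0%, 64.8% and 40.5%, CACGTG in 5.14%, 6.19% and 5.59%, and TATAAA in 1.99%, 2.85% and 8.003%. Around the start, the NRF1 string was in 1.47% (0.876% to 2.45%) of upstream-centred peaks and 2.38% (1.84% to 3.09%) of those downstream of every start. The ZBTB33 string was in 1.57% (0.955% to 2.58%) and 1.17% (0.806% to 1.70%). For both strings the intervals overlapped. Within the upstream-centred peaks, CCAAT under the centre was in 26.7% (22.7% to 31.1%) upstream of every start and 13.2% (10.6% to 16.4%) between starts. Around the start the pooled values joined classes that differed. Upstream of every start, GGGCGG was in 72.9% (68.5% to 76.9%), CCGGAAG in 17.2% (13.9% to 21.1%) and CCAAT in 25.2% (21.3% to 29.6%). Between starts they were in 57.0% (52.7% to 61.1%), 8.68% (6.57% to 11.4%) and 10% (7.73% to 12.8%). For GGGCGG the interval upstream of every start lay above that of the downstream-centred peaks (63.3% to 66.3%).

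Gene lists were counted by how many of their genes had an upstream-centred peak, beside the 20.0% upstream share of all 4681 coding genes with a peak of either class. Among the lists with 10 or more such genes, the intervals of 2 began above that value, with no test and out of 23 lists looked at. The 20.0% was not matched to the lists by number of coding starts. By that number the share of peaks ran from 9.69% with 1 start to 29.8% with 6 or more. Of 29 G1/S genes, 8 had an upstream-centred and 12 a downstream-centred peak (40%, 21.9% to 61.3%). They were Myc, the CDK inhibitor Cdkn2c (centre 829 bp upstream, score 441.64), the phosphatase Cdc25a (335 bp, 393.5), the pocket proteins Rbl1 (251 bp, 280.8) and Rbl2 (9 bp, 187.06), cyclin E1, Ccne1 (312 bp, 220.12), E2f7 (10 bp, 151.51) and the E2F partner Tfdp1 (217 bp, 120.61). All but Rbl1 were centred between starts.

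Of 28 enzymes that write or erase H3K9 and H3K4 methylation, 8 had an upstream-centred and 12 a downstream-centred peak, 1 of them both (42.1%, 23.1% to 63.7%). The H3K4 methyltransferases were Kmt2d (541 bp, score 591.34), Kmt2a (942 bp, 310.59), Setd1b (887 bp, 183.61) and Setd1a (1 bp, 156.64). The demethylase genes were Jmjd1c (53 bp, 443.03), Kdm4a (104 bp, 364.3), Kdm1a (78 bp, 197.62) and Phf8 (130 bp, 164.97), a close relative of Phf2. Kmt2d, Kmt2a and Setd1b were centred upstream of every start and the other 5 between starts.

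The lists of ribosomal, mitochondrial ribosomal, proteasome, oxidative phosphorylation, translation initiation, splicing and tRNA synthetase genes had upstream shares of 7.14% to 17.6%, each with an interval that includes 20.0%. Of 83 cytosolic ribosomal protein genes, 9 were upstream-centred and 54 downstream-centred (14.3%, 7.70% to 25.0%), among them Rps19 (score 524.81) and Rps21 (473.11), at 1 and 75 bp. The counts were 3 and 21 for mitochondrial ribosomal proteins, 3 and 16 for the proteasome, 4 and 25 for oxidative phosphorylation and 4 and 22 for translation initiation factors. They were 6 and 29 for splicing factors, 1 gene having both, and 1 and 13 for aminoacyl tRNA synthetases. The zinc finger genes named Zfp had 24 and 91, 3 of them both (21.4%, 14.8% to 29.9%), a share whose interval also includes 20.0%. Of 67 replication-dependent histone genes, 0 had an upstream-centred and 16 a downstream-centred peak, a share of up to 19.4%, and this interval ends just below 20.0%. A peak of any kind was at 38 of the 67, so others fell outside both classes.

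The lists of neural identity, signalling and the cell cycle given next had upstream shares whose intervals all include the 20.0% of all genes. Of 22 neural stem cell genes, 3 had an upstream-centred peak, Emx2, Msi2 (222 bp, score 112.85) and Sox1 (245 bp, 102.3). A downstream-centred peak was at 13, with 2 genes having both, so that 14 had either (21.4% upstream, 7.57% to 47.6%). Neuronal genes had 1 (Neurod1) and 2 (33.3%, 6.15% to 79.2%), and glial genes 1, the glutamate transporter Slc1a2, and 1. Notch signalling genes had 4 and 10 (28.6%, 11.7% to 54.6%), among the 4 the coactivators Maml2 (239 bp, 597.42) and Maml1 (121 bp, 378.44) and the protease Adam17 (5 bp, 270.86). Immediate early genes had 2 (Myc and Egr2) and 8, and forkhead genes 3 and 8, with Foxo3 (530 bp, 657.06) the highest. Klf genes had 1 (Klf12, which also had a downstream-centred peak) and 9. G2/M genes had 3 (Kif11, Ccna2 and Birc5) and 13, and DNA replication genes 2 (Rfc4 and Cdt1) and 9. The ERK feedback genes of the Spry, Spred and Dusp families had 0 and 5, which allows a share of up to 43.4%.

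The upstream share was 16.5% (chromosome 16) to 23.2% (chromosome 17) on the autosomes. On X it was 5 of 59 peaks (8.47%, 3.67% to 18.4%), against 949 of 4755 on the autosomes (20.0%, 18.8% to 21.1%).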

How the data were processed

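The values came from 1 peak list per antibody. The deposited PHF2 peaks carry 1 score each, from 100.02 to 3226.07 in the authors' list, and come from MACS run in Galaxy, per the file headers. In the deposited H3K9me2 list the score is 0 for every region. The submitters' processing notes name Bowtie2 and mm10. The version and settings of MACS and the caller of the H3K9me2 list are not given in the sources used here.

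Centres were compared with 54361 coding and 14955 noncoding starts of GENCODE M21 (chromosomes 1 to 19, X and Y), in Python 3.11.15 with numpy 2.4.6, pandas 2.3.3, scipy 1.17.1 and matplotlib 3.10.9. The classification was tested on simulated data. An overlap was 1 bp or more, CpG profiles used bins of 100 bp, and intervals were at 95%. Gene lists were counted by symbol. Named genes were the 15 highest-scoring, 5 farthest, 5 longest and 5 shortest members, the 10 highest-scoring with an antisense start, up to 3 per list, and those overlapping H3K9me2 or at the edges of the rule. Some genes that this rule names are not reported here. The members and lists were chosen with earlier results of these data known. Alternatives changed the start set, windows, score minimum and noncoding biotypes, and 3 (RefSeq starts, genes with 1 start, joined peaks) were chosen after seeing the data.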

Additional observations from a re-analysis of the deposited data

How the results depend on the processing

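Of 166 alternative values, 100 stayed within the interval of the reported value (or within 1.5 times, for the count), 64 moved outside it and 2 changed sign. Pairs give the upstream-centred value first and the downstream-centred value second. The median CpG centroid of the upstream-centred peaks changed sign with the 5′-most start of each gene alone (25.6 bp, downstream 150.4 bp) and at genes with 1 coding start (24.5 bp, downstream 140.3 bp), since both settings leave out peaks between starts. The 5′-most start alone gave 439 upstream-centred peaks, 10.2% of peaks, 100% upstream of every start by construction, 17.3% with an antisense start and median scores of 227.7 and 227.3. It kept 424 of the 954. Genes with 1 coding start gave 123 peaks, 9.69%, 100% upstream of every start, 17.9% and scores of 226.4 and 225.6. In these 2 settings the upstream interval of the score (209 to 248 and 193 to 253) included the downstream median, unlike that of the 954. RefSeq curated starts gave 14.1% upstream, 75.7% of them upstream of every start, 16.8% with an antisense start and centroids of −18.0 and 127.5 bp. Of its 683 upstream-centred peaks, 539 were among the 954. Starts of all transcripts gave 23.3%, 34.0% and a downstream centroid of 79.8 bp. Transcripts tagged basic gave 16.4%, 60.7% and centroids of −19.2 and 113 bp. Support level 1 gave 15.3%, 70.5% and centroids of −18.9 and 121 bp. Keeping peaks at windows of several genes gave 21.5% upstream, 49.3% of them upstream of every start, 11.8% and 7.69% with an antisense start and a downstream centroid of 95.6 bp. A limit of 500 bp gave a downstream centroid of 97.8 bp, a score of 215 and a length of 1240 bp. CpG windows of 500 bp gave centroids of −18.9 and 65.6 bp, and of 2000 bp a downstream centroid of 118 bp. The higher-scoring 50% of peaks held 513 members, 21.2% of peaks, 40.4% upstream of every start, with scores of 375 and 368, lengths of 1690 and 1587 bp and centroids of −54.7 and 114 bp. The higher-scoring 10% held 95 members, 21.0%, 36.8% upstream of every start, with scores of 824 and 792, lengths of 2359 and 2247 bp, antisense shares of 16.8% and 10.6% and an upstream centroid of −93.6 bp. Antisense shares were 11.7% and 7.75% within 500 bp, 7.55% and 4.85% for antisense and bidirectional biotypes, and 17.3% and 10.4% for all biotypes other than protein coding. The antisense share was higher upstream than downstream in each of these settings. No paired analysis was possible because each group had 1 sample. The depth is unknown, so a weak peak cannot be told from an absent one.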
